A study of Capra hircus with 9 samples.

Results

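A set of 10 sugar transporter genes from the SLC2 and SLC5 families were followed across polyadenylated RNA libraries of the goat uterus, chosen by name as the rows of the count table whose gene symbol was SLC2A1, SLC2A3, SLC2A4, SLC2A5, SLC2A8, SLC2A10, SLC2A12, SLC2A13, SLC5A1 or SLC5A3. Of these 10 symbols, 9 matched a row among the 25671 rows of the table, and all 9 passed the filter on low counts that 16098 rows passed. SLC2A5, the fructose transporter, matched no row under that symbol and is not analysed here. The libraries came from Liaoning Cashmere goats, a fibre breed of Capra hircus, at 6, 16 and 19 days, with 3 libraries a day. The labels call all 3 times peri-implantation and the design text words them as ages, so the event that starts the count of days is not known. No treatment or genotype is given. Whether each library is its own animal is not stated either, and p-values therefore measure only the spread between these libraries, which may be technical. The tissue field reads uterus and the series title endometrial epithelium, while the treatment protocol mentions testis.

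Sugars enter cells through unrelated families of membrane proteins. Most of the SLC2 proteins, also called GLUTs, let hexoses pass down their gradient, and each member has its own affinity, substrate and place in the cell. The SLC5 proteins, which include the SGLTs, couple sugar or inositol to sodium and so can take it up against its gradient, drawing on the sodium pump. The lumen of the ruminant uterus holds glucose and fructose, and the conceptus takes up sugar there before and during attachment.

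The libraries held 8712751 to 11074693 counts. Values are given as CPM (counts scaled to a common library total) after TMM scaling, edgeR's correction for library composition. They are compared within a gene, not between genes, because no transcript lengths were used. Day 19 replicate 1 stood apart from the other libraries of its day. Over the tested genes it had Spearman correlations of 0.894 and 0.897 with replicates 2 and 3, but of 0.945 to 0.963 with those of day 16, while replicates 2 and 3 had one of 0.983. Its counts were 2.42% ribosomal protein genes, a share of 6.61% and 5.64% in replicates 2 and 3 and of 3.64% to 4.34% in all libraries of the earlier days. The transporters' calls that involve day 19 are therefore given with and without it, and values of other called genes where leaving it out moves the fold by over 1.5 times. Of 14 epithelial markers 12 were in the table, and the adhesion gene EPCAM lay between 186 and 423 CPM in every library. All 10 stromal fibroblast and all 10 smooth muscle markers passed the filter too. Of 11 testis germ cell markers 9 were in the table, with a sum of 22.3 to 60.4 CPM, and 3 passed the filter. DDX4, AKAP4 and TEX14 were among those with reads, while SYCP3, TNP1 and ODF1 had none and DAZL had 1 read in all.

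The first comparison asked which transporters differed between day 16 and day 6. The intestinal-type sodium-glucose cotransporter SLC5A1, the basal glucose transporter SLC2A1 and the facilitative transporter SLC2A12 rose, and SLC2A10 fell. These were 4 of the 9 genes tested, or 44.4%, 3 higher and 1 lower. Over all 16098 genes 8.86% were called, 5.12% higher and 3.74% lower (edgeR quasi-likelihood test, Benjamini-Hochberg adjusted p under 0.05). The median log2 fold change was 0.26 over the 9 genes and -0.00027 over all genes. The libraries of the 2 days did not overlap for 4 genes that were higher at day 16 and for 2 that were lower, where 19.9% and 18.8% of all genes did so, 38.7% in either direction. Without day 19 replicate 1, whose omission changes the shared estimate of spread, 4 members were again called, 3 higher and 1 lower, where 20.4% of all genes were called, 10.7% higher and 9.67% lower.

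**Figure D1:**
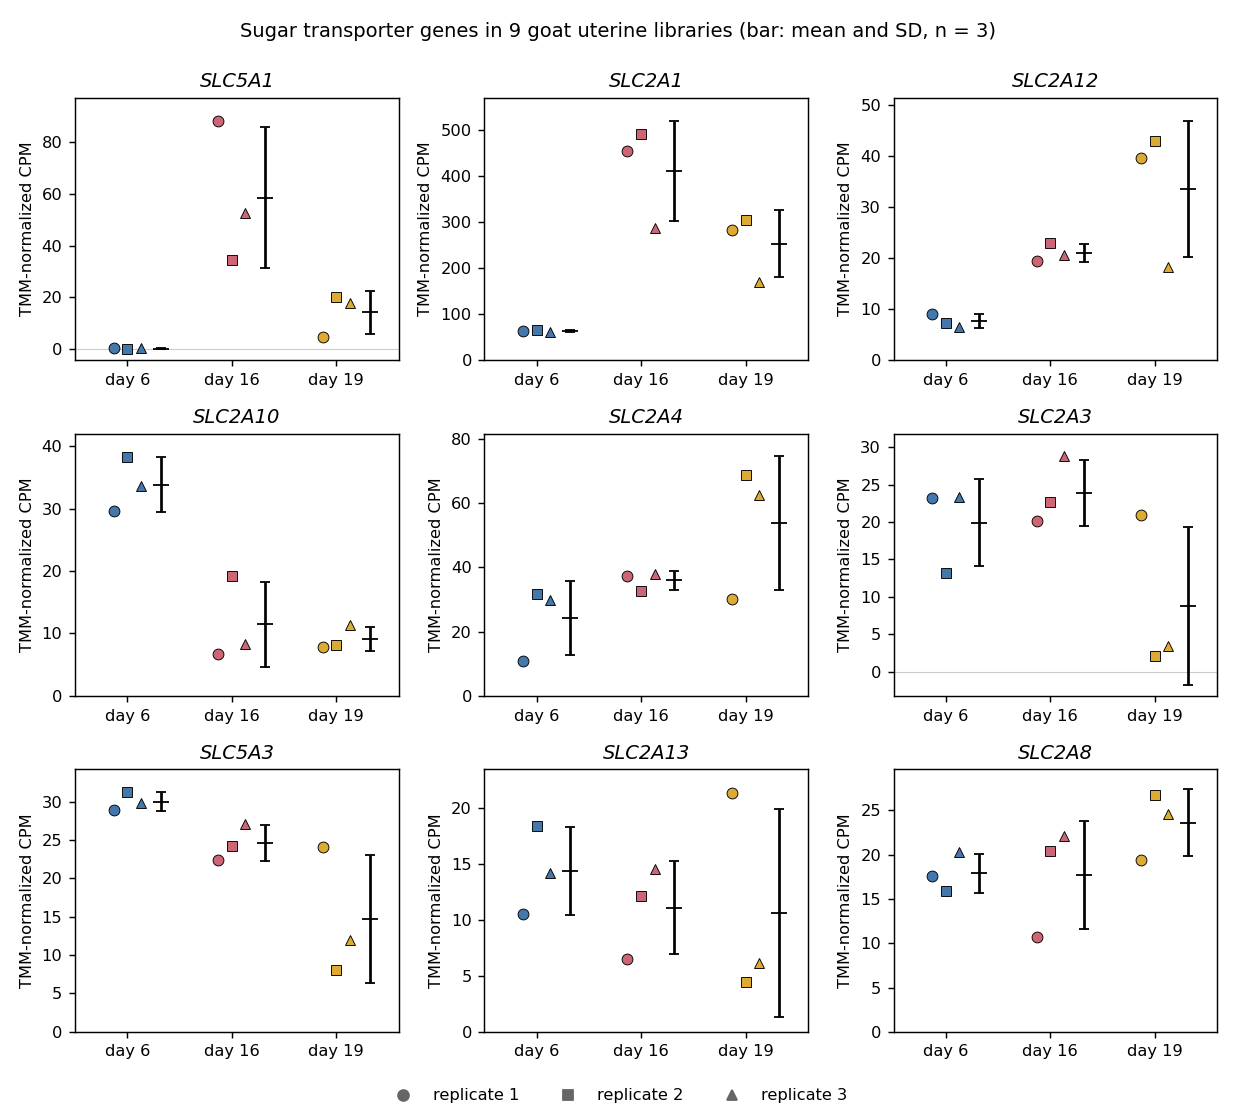
TMM-normalized CPM of the 9 sugar transporter genes in each library (y axis, linear, own scale in each panel) at days 6, 16 and 19 (x axis). Points are libraries, with the symbol giving the replicate number, and bars are the mean and SD of 3 libraries. SLC5A1 sits at 0 to 0.0975 CPM in the 3 day 6 libraries and between 34.5 and 88.3 CPM at day 16, while SLC2A3 at day 19 has 1 library at 20.9 CPM and the others at 2.10 and 3.39 CPM.

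SLC5A1 couples glucose and galactose uptake to sodium at the apical face of absorptive epithelia. At day 6 it had 1, 0 and 1 counts in replicates 1, 2 and 3, which is 0.0928, 0 and 0.0975 CPM. At day 16 it stood at 88.3, 34.5 and 52.7 CPM and at day 19 at 4.66, 19.97 and 17.8 CPM. All 6 later libraries lay above all day 6 libraries, and the 3 day 16 libraries lay above the 3 day 19 libraries. With only 2 reads at day 6, the ratio of day 16 to day 6 was 903, with a 95% counting interval of 250 to 7465, and that of day 19 to day 6 was 215, with an interval of 59.1 to 1780. These intervals cover counting error only. The edgeR adjusted p-values were 0.00031 for day 16 and 0.000651 for day 19 against day 6.

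SLC2A1 encodes GLUT1, which supplies glucose to most cell types. It had 64.1, 66.0 and 61.0 CPM at day 6, 455, 490 and 286 CPM at day 16, and 282, 305 and 170 CPM at day 19. The day 6 libraries were close together, with a coefficient of variation of 3.94%, against 26.6% at day 16 and 28.6% at day 19. Every later library was above every day 6 library. SLC2A1 was 6.43-fold higher at day 16 than at day 6 (log2 fold change 2.69, SE 0.29, adjusted p = 0.000568) and 3.96-fold higher at day 19 than at day 6 (log2 fold change 1.99, SE 0.28, adjusted p = 0.0014). The row was described in the table as a GLUT1-like gene, and it carried the identifier that the goat reference gene table pairs with SLC2A1.

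SLC2A12 encodes GLUT12, a glucose transporter first described in a human breast cancer line. Its values were 9.10, 7.21 and 6.43 CPM at day 6, 19.5, 22.9 and 20.6 CPM at day 16, and 39.5, 42.8 and 18.3 CPM at day 19. The day 16 libraries all lay above the day 6 libraries, and at day 19 replicates 1 and 2 lay above and replicate 3 below the day 16 range. SLC2A12 was 2.77-fold higher at day 16 than at day 6 (log2 fold change 1.47, SE 0.32, adjusted p = 0.0191) and 4.42-fold higher at day 19 than at day 6 (log2 fold change 2.14, SE 0.32, adjusted p = 0.00185). The day 16 call was lost when 1 library was left out in 5 cases, with adjusted p of 0.0803 and 0.0949 on omitting day 6 replicates 2 and 3, and of 0.0539, 0.0718 and 0.0501 on omitting the day 16 replicates in order, while the log2 fold change stayed between 1.36 and 1.62 over all 9 omissions. The call at day 19 held in all 9.

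SLC2A10 encodes GLUT10, a transporter of the inner membranes whose loss in humans causes arterial tortuosity syndrome. It was the member that fell. It had 29.6, 38.3 and 33.5 CPM at day 6, 6.74, 19.2 and 8.38 CPM at day 16, and 7.77, 8.19 and 11.3 CPM at day 19. No later library reached the lowest day 6 library, and day 16 replicate 2 was the highest of the later ones. The log2 fold change was -1.56 at day 16 against day 6 (SE 0.37, adjusted p = 0.0295) and -1.89 at day 19 against day 6 (SE 0.38, adjusted p = 0.00737). The day 16 call was lost without day 6 replicate 1, 2 or 3 (adjusted p = 0.0672, 0.104 and 0.0932) and without day 16 replicate 1 or 3 (0.0964 and 0.114), and without day 16 replicate 2 the log2 fold change was -2.16. The day 19 call held in all 9 omissions.

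**Figure D2:**
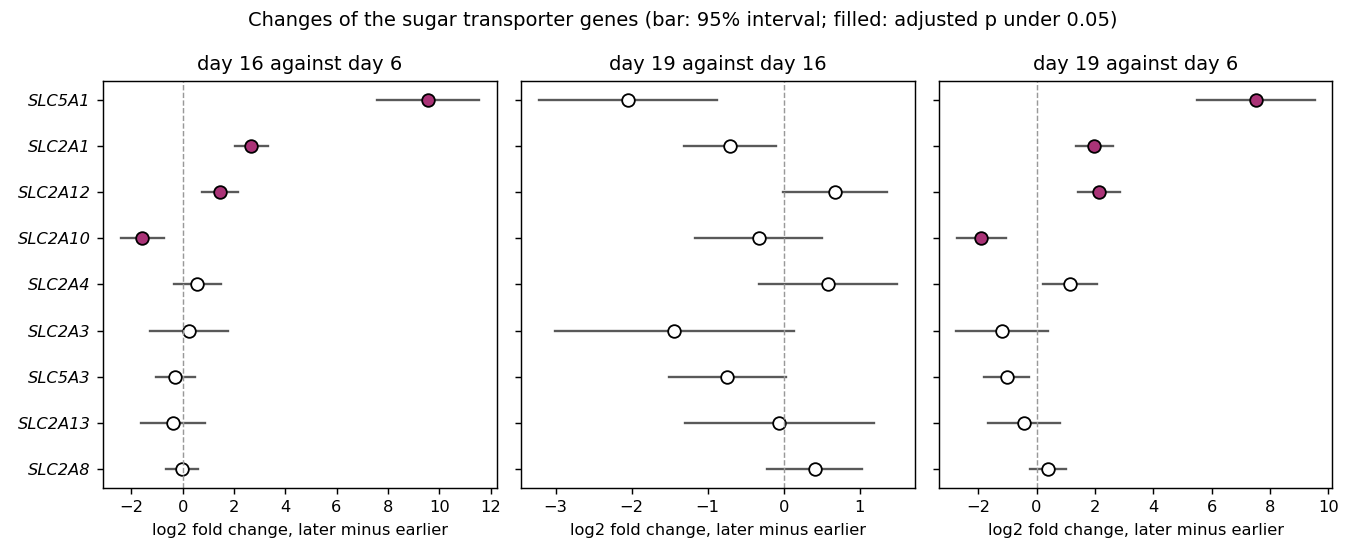
Log2 fold changes of the 9 sugar transporter genes (x axis, later minus earlier day, with a separate scale in each panel) for the 3 pairs of days. Points are edgeR estimates, bars are 95% intervals, and filled points have an adjusted p under 0.05. SLC5A1, SLC2A1 and SLC2A12 are filled and positive against day 6 in both comparisons, SLC2A10 is filled and negative in both, and no point is filled for day 19 against day 16.

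The other 5 genes did not pass at day 16 against day 6. SLC2A8, a mostly intracellular GLUT, had 17.5, 15.9 and 20.3 CPM at day 6, 10.7, 20.4 and 22.1 CPM at day 16, and 19.4, 26.8 and 24.6 CPM at day 19. Its groups overlapped in all 3 comparisons. The 95% interval of its log2 fold change was -0.64 to 0.61 for day 16 against day 6, -0.21 to 1.04 for day 19 against day 16 and -0.23 to 1.02 for day 19 against day 6. For the neuronal and leukocyte transporter SLC2A3 and the proton-coupled inositol transporter SLC2A13 the intervals for day 16 against day 6 were -1.26 to 1.78 and -1.61 to 0.87. SLC5A3, the sodium-coupled myo-inositol transporter that cells use against osmotic stress, had an interval of -1.04 to 0.47, although its 3 day 16 libraries, at 22.4, 24.3 and 27.1 CPM, all lay below its day 6 libraries, at 28.9, 31.3 and 29.8 CPM.

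SLC2A4 encodes GLUT4, which insulin brings to the surface of muscle and fat cells. It had 10.95, 31.7 and 29.7 CPM at day 6, 37.4, 32.6 and 37.8 CPM at day 16, and 30.1, 68.8 and 62.3 CPM at day 19. Day 6 replicate 1 was the lowest library, and day 19 replicates 2 and 3 were the highest. The log2 fold change was 1.16 at day 19 against day 6, with a 95% interval of 0.24 to 2.07, and missed the threshold (adjusted p = 0.0698; 0.00945 without day 19 replicate 1, with a log2 fold change of 1.46). The summed CPM of 10 smooth muscle markers, all tested, was 9619, 34975 and 28088 in day 6 replicates 1, 2 and 3, so the library with the least SLC2A4 also had the lowest sum. It was 21703 to 22930 at day 16, and 27564, 28201 and 45476 in day 19 replicates 1, 2 and 3. Day 19 replicates 1 and 2 thus had similar sums, while SLC2A4 was 30.1 and 68.8 CPM in them. Over the 9 libraries, Pearson's r between log2 CPM of SLC2A4 and the log2 sum was 0.81, a description in which libraries of a day share their day. The sum of 7 adipocyte markers found, of 8 listed, was 61.3 to 211 CPM at day 6, 32.1 to 41.9 CPM at day 16 and 19.0 to 31.6 CPM at day 19, with LEP at 0 in every library. The part of these cells in the values of SLC2A4 was not tested.

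Sums of several marker lists moved with the genes that rose. The summed CPM of the 12 epithelial markers was 833 to 954 CPM in the day 6 libraries, 1427 to 1510 CPM in those of day 16 and 1068 to 1605 CPM in those of day 19, and 3 of the 12 rose and 1 fell at day 16 against day 6 (7 and 2 without day 19 replicate 1). Of all genes, 5.12% rose and 3.74% fell in that comparison, and 10.7% and 9.67% without day 19 replicate 1. The mean epithelial sum was 1.68-fold as high at day 16 as at day 6, and 1.45-fold as high at day 19 as at day 6. Set against 1000 CPM of these markers in the same library, SLC2A1 stood at 280 ± 76.5 at day 16 and 73.3 ± 6.04 in the day 6 libraries (SD, n = 3 each), a ratio of 3.82, and SLC2A12 at 14.3 ± 1.59 at day 16 and 8.64 ± 0.903 at day 6, a ratio of 1.66. For SLC5A1, with 2 reads at day 6, the ratio was 553. The markers did not move together. Mean CLDN4 was 52.8 CPM at day 6 and 298 CPM at day 16, while KRT7 was 129 and 36.0 CPM and KRT18 was 56.3 and 35.5 CPM. The ratios therefore depend on the markers chosen. In bulk tissue a change in the share of a cell type and a change in RNA per cell cannot be told apart. Stromal fibroblast markers summed to 16980 to 21468 CPM at day 16 and 28283 to 31249 CPM at day 6, and the part of cell composition in these results was not tested. Neutrophil markers, 8 of 10 in the table and 4 tested, summed to 5.58 to 21.6 CPM at day 16 and 2.34 to 3.99 CPM at day 6, with MMP8 at 0 in all libraries; 2 of the 4 rose. Over the 9 libraries, Pearson's r on the log2 scale with the epithelial sum was 0.90 for SLC2A1, 0.92 for SLC5A1 and 0.77 for SLC2A12, and with the neutrophil sum 0.82, 0.78 and 0.68. For SLC2A12 it was 0.78 with the macrophage and monocyte sum. Erythrocyte markers, 6 of 10 in the table, summed to at most 1.75 CPM in any library, and HBM, ALAS2 and EPB42 were at 0.

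**Figure D3:**
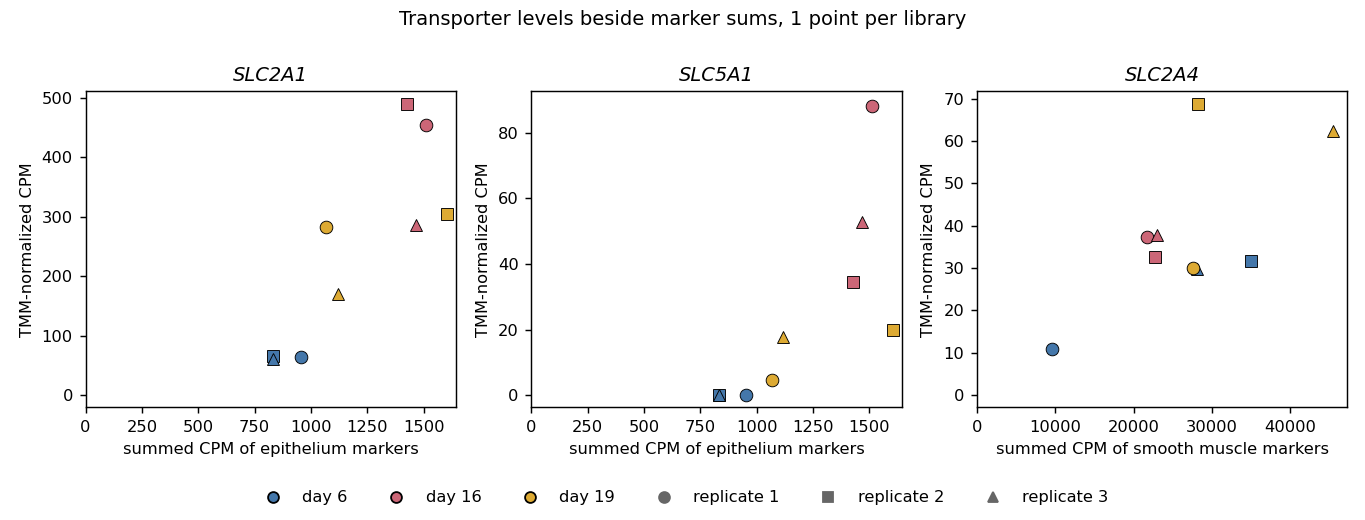
TMM-normalized CPM of SLC2A1, SLC5A1 and SLC2A4 (y axes) against the summed CPM of epithelial or smooth muscle markers (x axes), 1 point per library, coloured by day with the symbol giving the replicate. The day 6 libraries lie lowest for SLC2A1 and SLC5A1, at marker sums of 833 to 954 CPM, and day 6 replicate 1 is lowest for SLC2A4, at a smooth muscle sum of 9619 CPM.

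For day 19 against day 16, none of the 9 genes passed in edgeR. SLC2A1 and SLC5A1 had an unadjusted p under 0.05 in edgeR, as had 3946 of all 16098 genes. DESeq2 called 1 of the 9 genes, but it also called more of all genes than edgeR did. Limma voom with sample weights called 5 of the 9, where it called 7354 of all 16098 genes. Of all genes 1.2% were called in edgeR, 0.516% higher and 0.683% lower. The median log2 fold change was -0.33 over the 9 genes and 0.013 over all genes. SLC5A1 came nearest, at 14.1 ± 8.28 CPM at day 19 and 58.5 ± 27.3 CPM at day 16 (SD, n = 3 each), with a log2 fold change of -2.05 (95% interval -3.22 to -0.88, adjusted p = 0.0774) and no overlap between the days. It was the only member without overlap here, where 12% of all genes were lower without overlap, 11.9% higher, and 23.9% in either direction. SLC2A1 had an interval of -1.30 to -0.096 (adjusted p = 0.16). For SLC2A12 it ran from -0.0060 to 1.36 (adjusted p = 0.206).

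Within day 19, replicate 1 departed from replicates 2 and 3 for several transporters. SLC2A3 had 20.9 CPM in that library and 2.10 and 3.39 CPM in replicates 2 and 3, a ratio of 7.62 to their mean, while its day 16 libraries had 20.1, 22.7 and 28.8 CPM and its day 6 libraries 23.2, 13.2 and 23.4 CPM. SLC2A13 had 21.4 CPM in replicate 1 and 4.49 and 6.14 CPM in replicates 2 and 3, and SLC5A3 had 24.1, 8.09 and 11.95 CPM in replicates 1, 2 and 3. Replicate 1 was the high library for these 3 genes and the low one for SLC5A1 and SLC2A4. By less it was also the low one for SLC2A8 and SLC2A10, with ratios of 0.76 and 0.80 to the mean of replicates 2 and 3. Replicate 1 lay within the day 16 range for SLC2A3, SLC2A8, SLC2A10 and SLC5A3. Replicates 2 and 3 both lay below that range for SLC2A3, SLC2A13, SLC5A1 and SLC5A3, and both above it for SLC2A4 and SLC2A8. The share of all genes with such positions was not computed. Without replicate 1, 44.7% of all genes were called at day 19 against day 16.

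**Figure D4:**
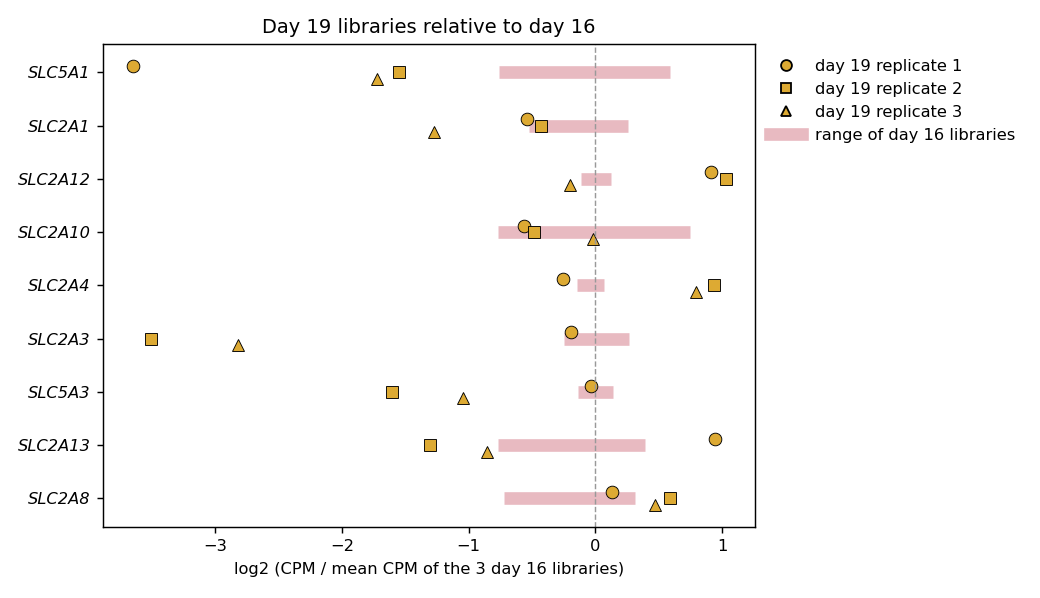
Log2 ratio of each day 19 library to the mean of the 3 day 16 libraries (x axis) for the 9 sugar transporter genes (y axis). Symbols give the day 19 replicate, and shaded bars give the range of the day 16 libraries. Replicate 1 lies within the shaded range for SLC2A3 and SLC5A3, where replicates 2 and 3 lie far to its left.

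Without day 19 replicate 1, 4 of the 9 genes passed at day 19 against day 16, all lower, but 44.7% of all genes then passed, 21.6% higher and 23.1% lower. The log2 fold change was -3.11 for SLC2A3 (adjusted p = 0.000166), -1.62 for SLC5A1 (0.00651), -1.29 for SLC5A3 (0.000673) and -1.05 for SLC2A13 (0.0458). For SLC2A13 the sign depended on single libraries, since the log2 fold change was -0.058 over all libraries and 0.31 and 0.22 when day 19 replicate 2 or 3 was omitted. A list drawn up as trophoblast markers had 7 of 14 genes in the table and 4 tested. Between replicate 1 and the other 2 day 19 libraries, its sum had the order of SLC2A3, SLC5A3 and SLC2A13. That order was opposite to the one of SLC5A1. It was not particular to these markers. SLC38A2, SLC6A6 and IRS1, named below, had it too, while CDIPT and SLC45A3 had the reverse. The sum of the trophoblast list was 122 CPM in day 19 replicate 1, 46.5 and 41.0 CPM in replicates 2 and 3, and 115 to 158 CPM at day 16. At day 6 it was 122 to 213 CPM, and its mean was highest there, at 168 CPM against 133 CPM at day 16 and 70.0 CPM at day 19. The genes were matched by symbol only, PAG1 among them, so a symbol may stand for a gene that is not placental. Macrophage and monocyte markers summed to 1041, 1657 and 1396 CPM in the same day 19 libraries and 590 to 902 CPM at day 16. The part of either cell type was not tested.

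At day 19 against day 6, the same 4 genes passed as at day 16, SLC5A1, SLC2A1 and SLC2A12 higher and SLC2A10 lower, where 22.9% of all genes passed, 12.7% higher and 10.2% lower. Of the members, 3 were higher and 2 lower without overlap, as were 19.6% and 18.9% of all genes, 38.5% in either direction. The comparison shares the day 6 libraries with the first, so the 2 sets of calls are not independent. Beyond these, SLC5A3 stood at 14.7 ± 8.35 CPM at day 19 and 30.0 ± 1.23 CPM at day 6 (SD, n = 3 each), without overlap, and had a log2 fold change of -1.03 (95% interval -1.79 to -0.26, adjusted p = 0.0572). Without day 19 replicate 1, 8 of the 9 genes passed, 4 higher and 4 lower, where 54.2% of all genes passed, 27.2% higher and 27% lower. The log2 fold change was 7.94 for SLC5A1, 1.91 for SLC2A1, 2.02 for SLC2A12 and -1.78 for SLC2A10 in that fit. The added genes were SLC2A4 at a log2 fold change of 1.46, SLC2A3 at -2.85 (adjusted p = 0.000157), SLC5A3 at -1.57 (0.00016) and SLC2A13 at -1.42 (0.0104). SLC2A8 was not called in that fit either (log2 fold change 0.53, adjusted p = 0.121).

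The remaining family members add to this. Of 5 other SLC2 genes listed, SLC2A6 and SLC2A11 were tested, and neither passed in any comparison. SLC2A2, the liver-type transporter, had 0 counts in all libraries. A row described in the table as the glucose and fructose transporter member 5, with the locus name LOC102178379, had 2.69, 3.29 and 2.92 CPM at day 6, 0.421, 0.797 and 3.16 CPM at day 16, and 0.0971, 3.79 and 2.22 CPM at day 19. It was low in 3 later libraries and near the day 6 level in the other 3, and it passed in no comparison (adjusted p = 0.648, 0.778 and 0.687). Another locus, LOC102170454, described as like SLC2A3, had at most 4 counts in any library, and a locus described as like SLC5A1, LOC102185208, had at most 1. LOC106504008, described as an SLC2A6 pseudogene, was tested and did not pass (adjusted p = 0.998, 0.212 and 0.137). The rows LOC106501911, LOC106503964, LOC102175148, LOC102182188 and LOC106503577, described as other relatives, had between 0 and 6 counts in every library and were not tested.

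Of 10 other SLC5 genes 4 were tested. Of these, 1 rose at day 16 against day 6, where 5.12% of all genes rose, and 3 rose at day 19 against day 6, where 12.7% did. SLC5A11, the second sodium-coupled myo-inositol transporter, had 0.186, 0.309 and 0.39 CPM at day 6, 19.8, 7.86 and 11.6 CPM at day 16, and 1.85, 11.6 and 5.82 CPM at day 19. It followed the order of SLC5A1 across the day 16 libraries. SLC5A11 rose 42.9-fold at day 16 against day 6 (adjusted p = 0.00248) and 21.0-fold at day 19 against day 6 (adjusted p = 0.00408; 12.6-fold without day 19 replicate 2). Both folds start from 9 reads over the day 6 libraries, so their size is limited by counting. SLC5A5, the sodium-iodide symporter of the thyroid, had 0 counts at day 6, 5, 22 and 2 counts in day 16 replicates 1, 2 and 3, and 36, 25 and 39 counts in the day 19 libraries. Against a floor of 3 counts over the day 6 group it was at least 34.4-fold higher at day 19 (adjusted p = 0.00875) and at least 10.1-fold higher at day 16, where it missed the threshold (adjusted p = 0.0537; 0.0448 without day 19 replicate 1). SLC5A10, a kidney sugar cotransporter, passed at day 19 against day 6 at 1.94 ± 0.923 and 0.48 ± 0.24 CPM (SD, n = 3 each; adjusted p = 0.0399), but in only 1 of 9 fits that left out a library, the one without day 19 replicate 1 (0.0559 to 0.132 in the others). SLC5A6, the vitamin transporter, passed in no comparison.

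**Figure D5:**
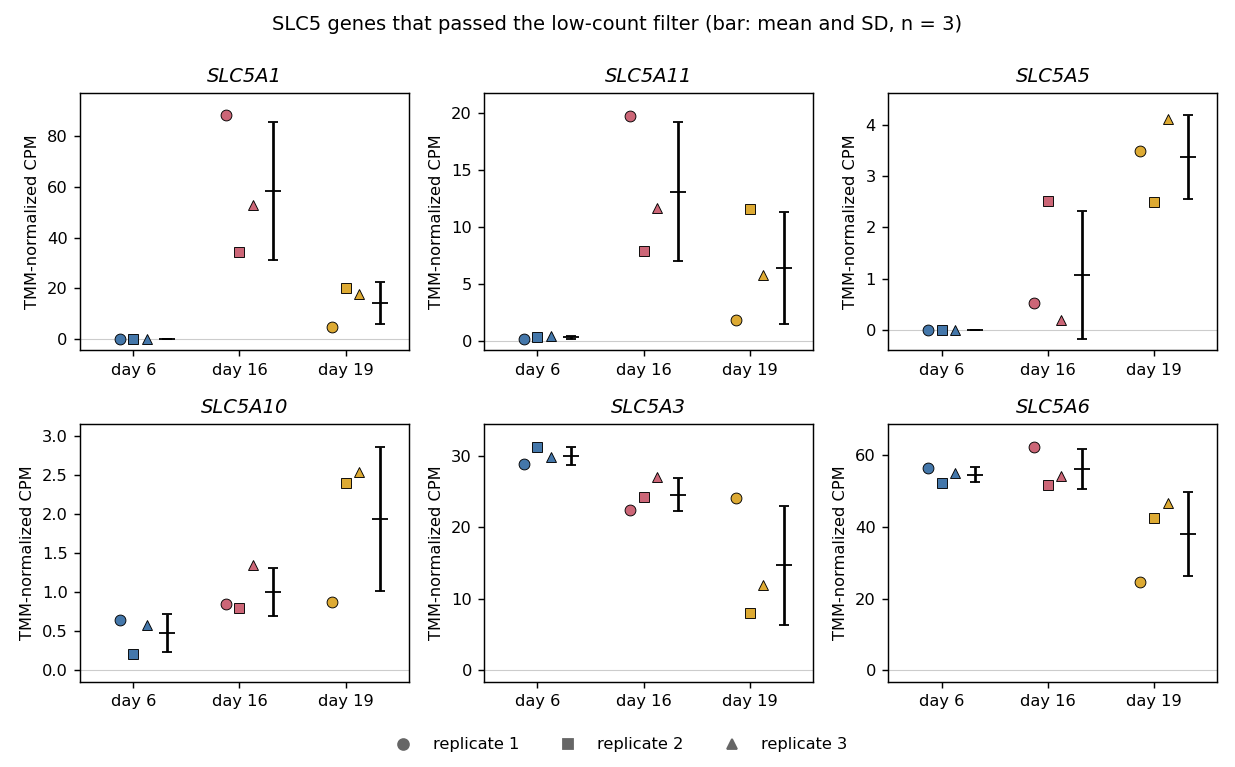
TMM-normalized CPM of the 6 SLC5 genes that passed the low-count filter (y axis, own scale in each panel) by day (x axis). Points are libraries, with the symbol giving the replicate, and bars are the mean and SD of 3 libraries. SLC5A1 and SLC5A11 are near 0 in the day 6 libraries and highest in day 16 replicate 1, at 88.3 and 19.8 CPM.

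With the other SLC2 and SLC5 genes just given, 9 lists held 113 genes of sugar transport, its regulation, the sodium pump, and sugar and inositol metabolism, of which 88 were tested. At day 16 against day 6, 8 of them rose and 6 fell, or 15.9% against 8.86% of all genes, with a median log2 fold change of 0.044. At day 19 against day 6, 16 rose and 13 fell, or 33% against 22.9% of all genes. At day 19 against day 16 none passed in edgeR; without day 19 replicate 1, 16 were higher and 23 lower, or 43.8% of the lists against 44.7% of all genes. The count called at day 16 was 27 without day 19 replicate 1 (30.3% against 20.4% of all genes), 8 without day 6 replicate 3 and 9 without day 16 replicate 1. At day 19 against day 6 it was 55 without day 19 replicate 1 (61.8% against 54.2% of all genes), 18, 17 and 17 with day 6 replicate 1, 2 or 3 omitted, and 19 without day 19 replicate 2. Calls over all genes also fell in some omissions. They went from 1427 to as few as 664 at day 16 against day 6, and from 3684 to as few as 1928 at day 19 against day 6.

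The list counts that follow stand beside 5.12% of all genes higher and 3.74% lower at day 16 against day 6. At day 19 against day 6 the shares were 12.7% and 10.2%. Among the enzymes that phosphorylate hexoses, 1 rose and 1 fell of 9 tested, in both comparisons with day 6. HKDC1, a hexokinase of epithelia, had 0.0928, 0.103 and 0.292 CPM at day 6, 22.96, 17.3 and 18.5 CPM at day 16, and 11.9, 7.59 and 13.1 CPM at day 19. It rose 112-fold at day 16 (adjusted p = 9.29e-05) and 62.0-fold at day 19 (adjusted p = 8.16e-05), from 5 reads over the day 6 libraries; without day 6 replicate 3, which held 3 of them, the folds were 178 and 98.5. HK2, the inducible hexokinase, stood at 7.01 ± 2.58 CPM at day 16 and 21.8 ± 6.21 CPM at day 6 (SD, n = 3 each; adjusted p = 0.0339), and its log2 fold change was -1.45 at day 19 against day 6 (adjusted p = 0.0285). The day 16 call was lost without day 6 replicate 1 or 3 (0.124 and 0.106) and without day 16 replicate 1, 2 or 3 (0.112, 0.0543 and 0.118). The day 19 call was lost without day 6 replicate 1 or 3 (0.102 and 0.0797) or day 19 replicate 2 or 3 (0.0900 and 0.0867).

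Of 7 other sugar carriers tested, 2 rose and 1 fell in each of the comparisons with day 6. The sugar phosphate carriers SLC37A1 and SLC37A3 passed in neither (adjusted p = 0.195 and 0.847 at day 16, 0.57 and 0.101 at day 19). SLC37A2, an antiporter of glucose 6-phosphate and phosphate in the endoplasmic reticulum, was at 243 ± 50.3 CPM at day 16 and 32.3 ± 9.65 CPM at day 6 (log2 fold change 2.91, adjusted p = 0.000666). SLC37A4, which feeds glucose 6-phosphate to glucose 6-phosphatase, was at 13.5 ± 2.93 CPM at day 16 and 83.7 ± 20.4 CPM at day 6 (SD, n = 3 each; log2 fold change -2.63, adjusted p = 0.00101). Both also passed at day 19 against day 6, at 2.30 and -2.74 on the log2 scale, and in every fit that left out 1 library. SLC45A3, a sugar transporter known from the prostate, rose at day 19 against day 6 with a log2 fold change of 1.92 (adjusted p = 0.0059). Its log2 fold change at day 16 was 1.53 (adjusted p = 0.0283), a call lost on omitting any of the 6 libraries of those days (0.0691 to 0.119).

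Of 9 polyol and hexosamine genes, 3 fell at day 16 against day 6, and 1 rose and 5 fell at day 19 against day 6. AKR1B1, aldose reductase, makes sorbitol from glucose; it stood at 70.3 ± 10.8 CPM at day 16 and 337 ± 83.9 CPM at day 6 (log2 fold change -2.26, adjusted p = 0.00197). GNPNAT1, an enzyme of UDP-N-acetylglucosamine synthesis, stood at 7.76 ± 0.616 CPM at day 16 and 20.96 ± 0.900 CPM at day 6 (SD, n = 3 each; log2 fold change -1.43, adjusted p = 0.00514). SORD, which turns sorbitol into fructose, fell by 1.26 on the log2 scale at day 16 (adjusted p = 0.0121; 0.0673 without day 6 replicate 3 and 0.0526 without day 16 replicate 1). GFPT1, the first enzyme of the hexosamine pathway, had a log2 fold change of -0.81 at day 19 against day 6 (adjusted p = 0.0108; 0.0519 without day 6 replicate 2). None of 17 glycogen genes passed at day 16, and 1 passed at day 19 against day 6, UGP2, which makes UDP-glucose, with a log2 fold change of 0.62 (adjusted p = 0.0148; 0.0628 and 0.0691 on omitting day 6 replicate 1 or 2).

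Regulators of glucose transport were represented by 25 tested genes, of which 3 rose at day 16 against day 6, and 4 rose and 2 fell at day 19 against day 6. TXNIP, an arrestin-like protein that takes GLUT1 off the cell surface and is induced by glucose, was at 2098 ± 75.3 CPM at day 16 and 829 ± 132 CPM at day 6 (SD, n = 3 each; log2 fold change 1.34, adjusted p = 0.00524). EPAS1, a hypoxia-inducible factor subunit, had a log2 fold change of 2.36 at day 16 (adjusted p = 0.00109) and 1.83 at day 19 (adjusted p = 0.00215), both against day 6. The kinase SGK1, known to raise SLC5A1 activity in frog oocytes, had a log2 fold change of 1.41 at day 16 (adjusted p = 0.0206), which was lost without day 6 replicate 2 or 3 (0.0934 and 0.102) or day 16 replicate 1 or 2 (0.0802 and 0.0554). IRS1, an adaptor of the insulin receptor, had a log2 fold change of -0.98 at day 19 against day 6 (adjusted p = 0.0195), lost without day 6 replicate 1 or 3 (0.0634 and 0.0715) or day 19 replicate 2 or 3 (0.0701 and 0.0632).

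The sodium pump, on whose gradient SLC5 proteins depend, had 1 gene higher and 1 lower of 7 at day 16 against day 6, and 2 higher and 3 lower at day 19 against day 6. Its beta subunit ATP1B1 stood at 112 ± 5.83 CPM at day 19 and 318 ± 56.6 CPM at day 6 (SD, n = 3 each; log2 fold change -1.51, adjusted p = 0.00089), and ATP1B2 had a log2 fold change of -2.78 (adjusted p = 0.00137). FXYD4, a small subunit that tunes the pump, had a log2 fold change of 4.23 at day 19 against day 6 (adjusted p = 0.0045); it was 3.29 without day 19 replicate 2, the highest library at 87.1 CPM, and 5.003 without day 6 replicate 1. At day 16 against day 6, FXYD4 had a log2 fold change of 3.74 (adjusted p = 0.0132; 0.0635 and 0.0701 on omitting day 6 replicate 2 or 3; its value was 4.54 on omitting day 6 replicate 1) and ATP1B1 of -0.84 (adjusted p = 0.0234), a call lost without day 6 replicate 1 or 3 (0.0509 and 0.111) or day 16 replicate 1 or 3 (0.0949 and 0.0959). Of 8 inositol and osmotic genes none passed at day 16, and 2 rose and 1 fell at day 19 against day 6. The one that fell was SLC6A6, the taurine transporter, at 4.06 ± 2.89 CPM at day 19 and 30.6 ± 8.71 CPM at day 6 (SD, n = 3 each; log2 fold change -2.90, adjusted p = 0.00257; -3.65 without day 19 replicate 1). CDIPT, the phosphatidylinositol synthase, had a log2 fold change of 0.96 (adjusted p = 0.0187), lost on omitting any day 6 library (0.0528 to 0.0727) or day 19 replicate 2 or 3 (0.0672 and 0.0614). SLC38A2, an amino acid transporter induced by osmotic stress, had one of 1.24 (adjusted p = 0.0371), lost on omitting any day 6 or day 16 library (0.0577 to 0.129). It had 422 CPM in day 19 replicate 1 and 157 and 159 CPM in replicates 2 and 3, and without replicate 1 its log2 fold change was 0.62.

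The genes whose log2 CPM over the 9 libraries was most like that of a member were found for the 4 members that differed among the 3 days (F test in edgeR, adjusted p of 0.00047 for SLC5A1, 0.00097 for SLC2A1, 0.00502 for SLC2A12 and 0.0109 for SLC2A10, where 19.6% of all genes passed). For SLC5A1 these were IKBKE, IL27 and SLC5A11, with Pearson's r of 0.989, 0.986 and 0.984. EPAS1, PDCD1LG2 and AGR2 were nearest to SLC2A1, with r of 0.983, 0.982 and 0.982. For SLC2A12 they were AMACR, ACADM and LZIC, with r of 0.976, 0.97 and 0.967, and for SLC2A10 they were NINL, TMEM114 and IHH, with r of 0.963, 0.958 and 0.952. Among the members themselves, SLC2A1 and SLC5A1 had r of 0.94, and SLC2A3 and SLC5A3, which shared the high value in day 19 replicate 1, had r of 0.93. These values describe 9 libraries that fall into 3 days and carry no test.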

How the data were processed

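Per the labels' protocols, poly(A) RNA was cut with RNase III and made into Ion Torrent libraries, and per the series' design text an Ion Proton instrument was used. What the authors deposited are raw counts of reads per gene, whole and not normalized, in a table with 1 column per library. The aligner, counter, build, annotation and strandedness were not given in the sources used here, so reads shared by close relatives or by overlapping genes may be split between them. Totals ranged from 8712751 to 11074693 counts, and 4121 of 25671 rows had no counts. The least different libraries of a day had a chi-square of 10.4 per degree of freedom, so all 9 libraries were kept as separate samples.

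The counts went into edgeR 4.0.16 under R 4.3.3: filterByExpr on the day, TMM scaling, and a robust quasi-likelihood fit of all 9 libraries with the day as the only term. Calls used p-values adjusted by Benjamini-Hochberg over 16098 genes, with 0.05 as the threshold. The standard error (SE) is the absolute log2 fold change divided by the square root of F, and 95% intervals use it. Correlations use log2 CPM with a prior count of 2. The test was also tried on simulated data. Alternatives used DESeq2 1.42.0, limma 3.58.1 voom, other scalings and filters, no robust estimation, only the days compared, a replicate block, and the omission of each library.

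The genes named are the 10 listed members, up to 3 called genes per list and comparison with the smallest p, the 3 genes most like each member that differed among days, and rows the table describes as relatives. The marker genes EPCAM, CLDN4, KRT7, KRT18, DDX4, AKAP4, TEX14, PAG1 and DAZL were singled out after values of these data were seen. The members and lists were chosen with earlier results of these data known.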

Additional observations from a re-analysis of the deposited data

How the results depend on the processing

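The counts of sugar transporter genes called did not change with RLE or upper-quartile scaling, either filter, or without robust estimation, with the exception of 5 rather than 4 at day 19 against day 6 with upper-quartile scaling. With 1 library left out, the member count ranged from 2 to 4 at day 16 against day 6, from 0 to 4 at day 19 against day 16, from 4 to 8 at day 19 against day 6 and from 4 to 8 for any difference among the days. The upper ends of the last 3 came without day 19 replicate 1. The same omissions gave 664 to 3345, 0 to 7331, 1928 to 8891 and 1416 to 9703 calls over all genes, against 1427, 193, 3684 and 3156. DESeq2 called 2274 genes at day 16 against day 6, 1756 at day 19 against day 16 and 5096 for any difference, and 1 member, SLC5A1, at day 19 against day 16. Voom with sample weights called 3811, 7354, 9433 and 10215 genes, and 4, 5, 8 and 8 members. Fits to just the 6 libraries of 2 days gave 4, 0 and 4 members, and their gene counts were 3092, 0 and 2357. The causes of these shifts were not tested.

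Replicate numbers gave no sign of paired libraries: the deviations of same-numbered libraries from their day means correlated at -0.16 to 0.15, over 0.1 in 1 of 9 pairs. For libraries of other numbers the range was -0.13 to 0.20, over 0.1 in 3 of 18 pairs. With 3 libraries a day, these correlations cannot exclude a pairing. A fit with a replicate block called 1100, 0, 2899 and 2201 genes and 4, 0, 5 and 4 members.

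The sign changed only for fold changes that were not called with all libraries. For SLC2A8 at day 16 against day 6 the log2 fold change was -0.012, and 0.0017 without a filter, 0.0011 with only the days compared, 0.087 without day 6 replicate 3 and 0.25 without day 16 replicate 1; omissions ranged from -0.19 to 0.25. SLC2A10 at day 19 against day 16 was at -0.33, and 0.26 without day 16 replicate 2, in a range from -0.60 to 0.26. For SLC2A13 in that comparison, which passed without day 19 replicate 1, the value was 0.012 or 0.18 on omitting day 16 replicate 2 or 3, and 0.31 or 0.22 on omitting day 19 replicate 2 or 3, in a range from -1.05 to 0.31. Of 486 alternative values of member fold changes, 445 kept direction and call. With 3 libraries a day and as few as 2 reads for SLC5A1 at day 6, the size of the largest change is limited by counting.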
